A study of Mus musculus with 24 samples.

Results

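The genes described here are 10 Wnt ligand genes of the mouse, chosen by symbol: Wnt2b, Wnt4, Wnt5a, Wnt5b, Wnt7a, Wnt7b, Wnt9a, Wnt9b, Wnt10a and Wnt11. They are 10 of the 19 Wnt ligand genes of the mouse and 10 of 54532 gene identifiers in the count tables. Each was followed through 24 bulk RNA-seq libraries of whole kidney, 6 in each of 4 groups. The knockout groups are mice that lack Lrp2 in proximal tubule cells, kept on a Western diet, which is rich in fat, for 2 weeks or for 12 weeks. The wild-type groups are littermates fed the same diet for 2 weeks or for 12 weeks, so all groups share the diet and there is no group on another feed. Lrp2 encodes megalin, the receptor through which proximal tubule cells take up filtered proteins. The labels write the genotypes as PTC LRP2-SM22 -/- and +/+ and do not explain SM22. Neither the driver of the deletion nor the age or sex of the animals is given there. Whether every library stands for a mouse of its own is not stated, and the p-values cover no more than the spread among these samples.

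Wnt proteins are secreted, lipid-modified signals that act over short distances. The membrane enzyme Porcupine attaches a palmitoleate lipid to a conserved serine of the ligand, the carrier Wntless brings the ligand to the cell surface, and the lipid then fits into a groove of the Frizzled receptors. Binding to Frizzled with Lrp5 or Lrp6 stabilises beta-catenin, which drives target genes such as Axin2 together with TCF and LEF factors. Other ligands, Wnt5a and Wnt11 above all, act mostly through routes that do not use beta-catenin. In the developing kidney, Wnt9b from the ureteric epithelium and Wnt4 in the nascent nephron induce tubule formation, Wnt11 marks the tips of the branching ureteric bud, and Wnt7b from the collecting duct is needed for the medulla to form.

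The lipid-attachment site is a feature that these genes share, and its coding sequence is shown to compare them. The 24 bases run 5′ to 3′ on the coding strand, in mm10 coordinates and GENCODE M21 transcripts, and the serine codon is in capitals.
Wnt4 (chr4:137296345-137296368, plus strand, exon 5): tgtcacggggtgTCGggctcctgc
Wnt10a (chr1:74803156-74803179, plus strand, exon 4): tgccacggcaccTCAggcagctgc
Wnt7a (chr6:91366272-91366295, minus strand, exon 4): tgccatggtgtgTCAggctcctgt
Wnt7b (chr15:85537812-85537835, minus strand, exon 4): tgtcacggtgtgTCAggctcctgt
Wnt5a (chr14:28522515-28522538, plus strand, exon 5): tgtcatggagtgTCTggctcctgt
Wnt11 (chr7:98850260-98850283, plus strand, exon 6): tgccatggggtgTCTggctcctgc
Wnt2b (chr3:104951220-104951243, minus strand, exon 4): tgtcacggtgtgAGTggctcctgt
Wnt5b (chr6:119433800-119433823, minus strand, exon 5): tgtcacggagtcTCCgggtcctgc
Wnt9a (chr11:59330926-59330949, plus strand, exon 4): tgccatggtgtgTCTggctcctgc
Wnt9b (chr11:103731167-103731190, minus strand, exon 4): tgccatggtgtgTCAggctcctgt
Each of the 10 genes held this site within a single exon, and the serine codon was TCA in 4 genes, TCT in 3, and TCG, TCC and AGT in 1 gene each. Wnt7b and Wnt11 shared 21 of the 24 bases with Wnt4, whereas Wnt10a shared 16. The deacylase Notum, whose RNA is described with the secreted inhibitors, removes the lipid that is attached at this serine.

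Levels are given in CPM, read counts per megacount of a library scaled with TMM factors, as mean ± SD over 6 libraries. Total counts, in megacounts, were 16.3 to 25.2 in knockout and 15.6 to 34.1 in wild-type libraries at 2 weeks. At 12 weeks they were 11.3 to 15.2 and 11.4 to 14.5. Lrp2 RNA was 352 ± 142 CPM in knockout kidneys, against 2005 ± 261 CPM in wild-type kidneys at 2 weeks. In the 12-week kidneys it was 323 ± 73.1 against 1876 ± 382 CPM, and the genotypes did not overlap at either duration. Markers of the labelled tissue were present, and the summed level of 9 proximal tubule genes was 24684 to 39586 CPM in knockout against 29348 to 38221 CPM in wild type at 2 weeks. It was 20159 to 31890 against 36790 to 43345 CPM at 12 weeks, without overlap, and 6 of the 9 genes at 2 weeks and 7 at 12 weeks were called lower. Its part in the Wnt results was not tested. The 12-week libraries carry other library names in the file headers than the 2-week libraries, and the predicted gene Gm42418 had 0 counts in every library at 2 weeks but 71635 to 424892 counts at 12 weeks. Diet duration and library set therefore cannot be told apart. Genotype was compared within each duration with edgeR's quasi-likelihood test and Benjamini-Hochberg adjustment over 17286 tested genes, and a gene was called at an adjusted p under 0.05.

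All of the 10 Wnt genes had counts, but at low levels. Per kilobase of exon, the knockout kidneys at 2 weeks held most of Wnt7b, at 2.41 ± 0.771 CPM per kb, followed by Wnt5a (2.36 ± 0.458), Wnt4 (1.92 ± 0.954), Wnt5b (1.74 ± 0.259) and Wnt9b (1.12 ± 0.540). Wnt10a, Wnt9a, Wnt2b, Wnt7a and Wnt11 followed between 0.751 ± 0.365 and 0.209 ± 0.102 CPM per kb, and every neighbour in this order overlapped the next in its range over libraries. In wild-type kidneys at 2 weeks the order per kilobase was Wnt5b (1.95 ± 0.227), Wnt5a (1.92 ± 0.251), Wnt7b (1.66 ± 0.383), Wnt9b (1.17 ± 0.443) and Wnt11 (0.901 ± 0.191), with Wnt4 in rank 7 at 0.522 ± 0.276 CPM per kb. There, neighbours overlapped except Wnt2b with Wnt10a and Wnt10a with Wnt7a.

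At 12 weeks, Wnt5a led in knockout kidneys at 2.13 ± 0.358 CPM per kb, and Wnt5b, Wnt7b and Wnt4 followed at 1.83 ± 0.297, 1.82 ± 0.586 and 1.78 ± 0.954 CPM per kb without separating from it or from each other as neighbours. The next were Wnt10a (1.11 ± 0.374), Wnt9b (0.640 ± 0.262), Wnt9a (0.528 ± 0.134) and Wnt11 (0.316 ± 0.0556), and the lowest were Wnt7a (0.157 ± 0.0410) and Wnt2b (0.0753 ± 0.0552). In wild-type kidneys at 12 weeks, Wnt5b stood above Wnt5a without overlap (2.13 ± 0.268 against 1.46 ± 0.106 CPM per kb), and Wnt5a above Wnt7b (0.766 ± 0.211), while all further neighbours overlapped. Wnt4 again held rank 7 in wild type, at 0.275 ± 0.0593 CPM per kb.

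**Figure D1:**
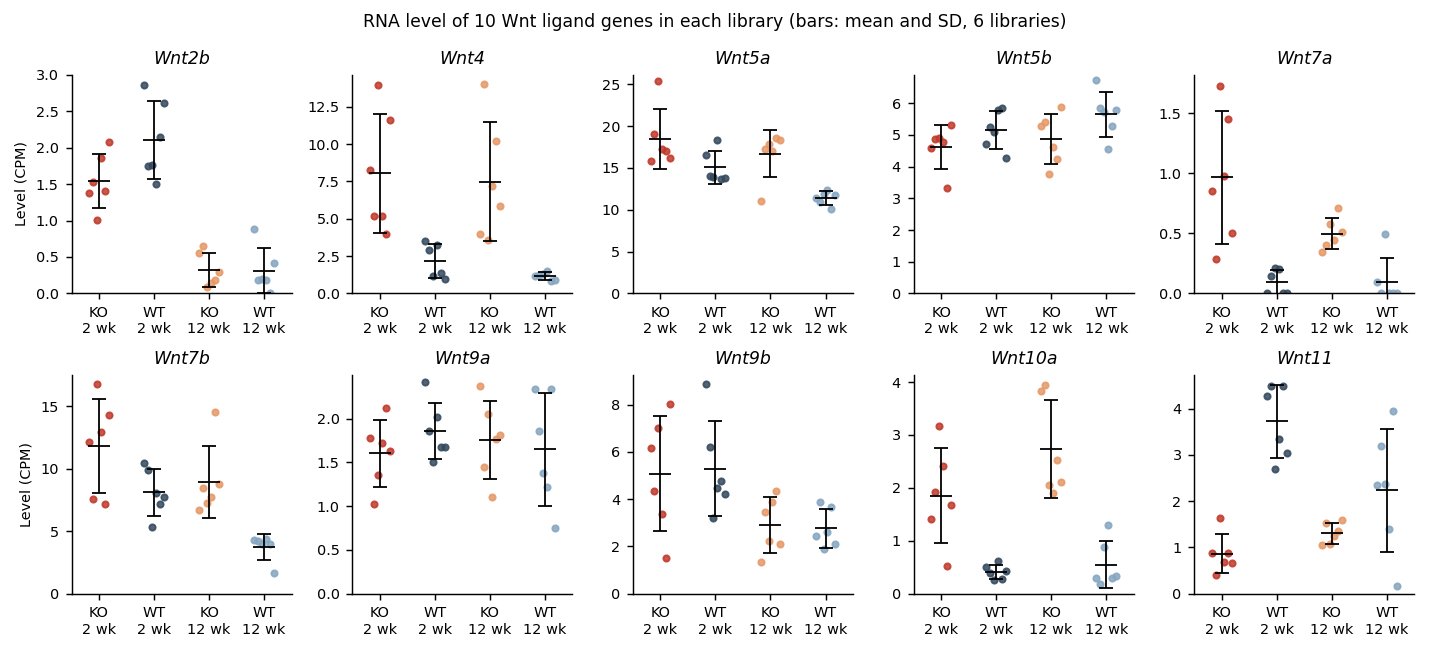
Level in CPM (vertical axes, linear, from 0) of the 10 Wnt genes in each of 24 libraries, with knockout (KO) left of wild type (WT) at 2 weeks and then at 12 weeks; points are libraries and black bars the mean and SD of 6. Wnt4 lies higher in every KO than in every WT library at both durations, Wnt11 lower in every KO library at 2 weeks, and Wnt2b near 0 in most 12-week libraries of both genotypes.

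Of the 9 Wnt genes that passed the filter on low counts, 4 were called between genotypes at 2 weeks, 3 higher and 1 lower in knockout, where 31.6% of all tested genes were called, 18.2% higher and 13.4% lower. At 12 weeks 4 of 9 were called, all higher, where 38.5% of all tested genes were called, 20.7% higher and 17.7% lower. The median log2 fold change over the 9 genes was -0.05 at 2 weeks and 0.13 at 12 weeks, against -0.01 and 0.00 over all tested genes. The filter reads CPM before TMM scaling, with a limit of 0.649 CPM. Wnt10a passed it through knockout libraries, with 5 and 6 of 6 above the limit at 2 and 12 weeks. Of the wild-type libraries, 0 and 2 of 6 were above it. A difference between the groups of Wnt10a is therefore built into its being tested. Wnt7a did not pass and is given by its counts. RNA of a whole kidney does not separate fewer cells of a type from less RNA per cell, so these cannot be told apart in any of the results.

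Wnt4, the ligand that drives the mesenchymal-to-epithelial step of the embryonic nephron (chromosome 4, 137277489 to 137299726, plus strand, mm10), was higher in knockout kidneys at both durations. At 2 weeks its level was 3.99 CPM in the lowest knockout library, 6.75 at the median and 13.9 in the highest, against 0.931, 2.11 and 3.53 CPM in wild-type libraries. At 12 weeks it was 3.61, 6.54 and 14.01 CPM in knockout libraries, against 0.812, 1.21 and 1.49 CPM in wild-type libraries. No knockout library overlapped a wild-type library at either duration, which 16.6% of tested genes showed at 2 weeks and 18.4% at 12 weeks in either direction. The mean was 8.04 ± 4.002 CPM in knockout against 2.19 ± 1.16 CPM in wild type at 2 weeks, 3.64-fold by the fit (edgeR log2 fold change 1.86, SE 0.40, adjusted p = 0.00283). At 12 weeks it was 7.48 ± 3.999 against 1.15 ± 0.249 CPM, 6.56-fold (edgeR log2 fold change 2.71, SE 0.33, adjusted p = 3.53e-05). The knockout libraries varied widely among themselves at both durations, with an SD close to that of the other duration, whereas the wild-type spread was narrow at 12 weeks.

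Wnt10a, a ligand of the beta-catenin route best known from teeth and skin appendages (chromosome 1, 74791516 to 74804179, plus strand), was also higher in knockout at both durations. At 2 weeks the lowest, median and highest values were 0.518, 1.80 and 3.17 CPM in knockout libraries and 0.260, 0.412 and 0.619 CPM in wild-type libraries. At 12 weeks they were 1.91, 2.32 and 3.94 CPM in knockout and 0.177, 0.320 and 1.31 CPM in wild-type libraries. Of the knockout libraries, 5 of 6 lay above every wild-type library at 2 weeks and 6 of 6 at 12 weeks. The log2 fold change of Wnt10a was 2.16 at 2 weeks (SE 0.37, edgeR adjusted p = 0.000179; mean 1.85 ± 0.900 CPM in knockout against 0.412 ± 0.138 CPM in wild type). At 12 weeks it was 2.32 (SE 0.40, edgeR adjusted p = 0.000447; mean 2.73 ± 0.923 and 0.550 ± 0.446 CPM). Wild-type counts were few, at 4 to 18 per library at 2 weeks and 2 to 14 at 12 weeks, which limits the precision of these ratios.

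Wnt7a, the close relative of Wnt7b (chromosome 6, 91363981 to 91411363, minus strand), was the scarcest of the genes in wild-type kidneys. The knockout libraries at 2 weeks held 24, 5, 41, 21, 28 and 9 counts of Wnt7a in replicates 1 to 6, 128 in all, and the wild-type libraries held 0, 3, 4, 4, 0 and 0 counts, 11 in all. At 12 weeks the knockout libraries held 5, 5, 7, 6, 12 and 7 counts, 42 in all, and the wild-type libraries held 1, 0, 5, 0, 0 and 0 counts, 6 in all. Every knockout library was above every wild-type library at 2 weeks, and at 12 weeks wild-type replicate 3, with 5 of the 6 wild-type counts, overlapped the knockout range. Mean levels were 0.966 ± 0.550 against 0.0935 ± 0.105 CPM at 2 weeks, a ratio of 10.3. They were 0.497 ± 0.130 against 0.0984 ± 0.197 CPM at 12 weeks, a ratio of 5.05. The two-sided exact permutation test of log2(CPM + 0.5), with 6 libraries a group, gave p = 0.00217 at 2 weeks, the smallest that 924 splits allow, and p = 0.00866 at 12 weeks. Fitted without the filter, Wnt7a was called at both durations (edgeR log2 fold change 3.38, SE 0.60, adjusted p = 0.000115 at 2 weeks, and 2.31, SE 0.70, edgeR adjusted p = 0.0203 at 12 weeks).

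Wnt7b, the collecting duct ligand that macrophages of the injured kidney can also make (chromosome 15, 85535437 to 85582473, minus strand), was higher in knockout. It separated the genotypes at 12 weeks, whereas at 2 weeks they overlapped and the call only just passed the threshold. At 12 weeks its lowest, median and highest values were 6.69, 8.08 and 14.6 CPM in knockout libraries, against 1.68, 4.11 and 4.38 CPM in wild-type libraries. The groups did not overlap, and the means were 8.92 ± 2.87 and 3.75 ± 1.03 CPM (edgeR log2 fold change 1.28, SE 0.24, adjusted p = 0.000686). At 2 weeks the same values were 7.20, 12.6 and 16.8 CPM in knockout and 5.30, 7.91 and 10.5 CPM in wild-type libraries. There 4 of 6 knockout libraries lay above all wild-type libraries, with means of 11.8 ± 3.78 and 8.11 ± 1.88 CPM (edgeR log2 fold change 0.57, SE 0.21, adjusted p = 0.0499). This 2-week call was lost without knockout replicate 1, 3, 4 or 6 or wild-type replicate 3, 4, 5 or 6 (edgeR adjusted p = 0.0802 to 0.118). It was also lost with RLE scaling, without the filter or in a fit of all libraries (edgeR adjusted p = 0.0534, 0.124 and 0.0610).

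Wnt5a, which signals through Ror2 and Frizzled outside the beta-catenin route (chromosome 14, 28504750 to 28527448, plus strand), had the most counts of the 10 genes. At 12 weeks it was 11.1 CPM in the lowest knockout library, 17.6 at the median and 18.5 in the highest, against 10.1, 11.6 and 12.4 CPM in wild-type libraries. All knockout libraries but replicate 1 lay above every wild-type library, and the means were 16.7 ± 2.80 and 11.4 ± 0.829 CPM, 1.49-fold by the fit (edgeR log2 fold change 0.58, SE 0.12, adjusted p = 0.00154). At 2 weeks the values were 15.8, 17.1 and 25.4 CPM in knockout and 13.6, 13.99 and 18.4 CPM in wild-type libraries, with 2 of 6 knockout libraries above all wild-type libraries. That difference missed the threshold (edgeR log2 fold change 0.32, SE 0.12, adjusted p = 0.0524). It passed with upper-quartile scaling (edgeR adjusted p = 0.0449) or without knockout replicate 1 or 6 or wild-type replicate 1 or 4 (edgeR adjusted p = 0.0264 to 0.0485).

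Wnt11, the ligand of ureteric bud tips in the embryo (chromosome 7, 98835112 to 98855195, plus strand), was the only 1 of the 9 tested genes called lower in knockout. At 2 weeks its lowest, median and highest values were 0.396, 0.788 and 1.65 CPM in knockout libraries, against 2.70, 3.82 and 4.49 CPM in wild-type libraries. All knockout libraries lay below all wild-type libraries, and the counts were 115 in the knockout group against 479 in the wild-type group. The log2 fold change of Wnt11 was -2.05 (SE 0.27, edgeR adjusted p = 1.17e-05; mean 0.863 ± 0.424 CPM in knockout against 3.73 ± 0.789 CPM in wild type). At 12 weeks the knockout libraries lay at 1.05, 1.30 and 1.60 CPM and the wild-type libraries at 0.168, 2.35 and 3.96 CPM. The lowest wild-type library was replicate 6, with 2 counts of Wnt11, and the other wild-type libraries held 15 to 39 counts. The groups overlapped, and the 12-week difference was not called (edgeR log2 fold change -0.73, SE 0.43, adjusted p = 0.195). Without wild-type replicate 6 it was called (edgeR log2 fold change -0.99, SE 0.26, adjusted p = 0.00983). That library was also the lowest of its group in Wnt7b, in Wnt9a and in the summed level of 5 thin limb markers (89.0 CPM against 128 to 158 CPM in the other wild-type libraries). It was lowest in the sum of 7 urothelium markers (1.59 against 5.58 to 9.61 CPM) and of 7 fibroblast markers (116 against 191 to 407 CPM). Its sums of intercalated, endothelium, smooth muscle and adipocyte markers were the lowest of the group too, and its proximal tubule and thick ascending limb sums the highest. Their part in the result was not tested.

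**Figure D2:**
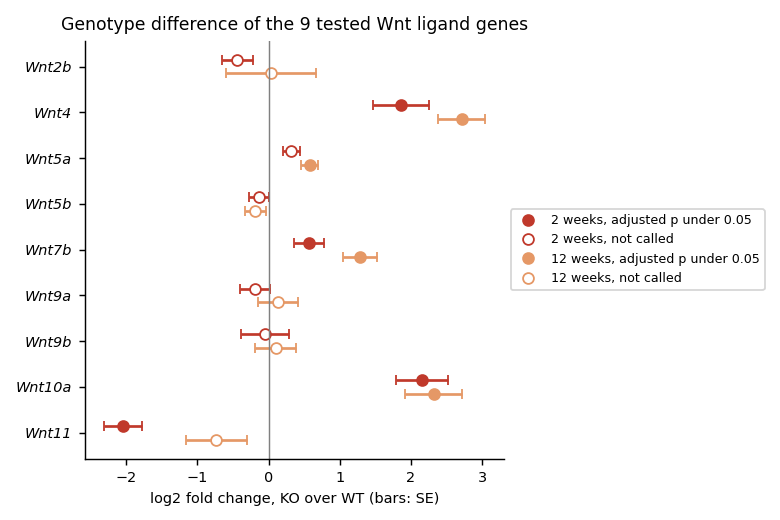
Log2 fold change of knockout over wild type (horizontal axis) with its SE for the 9 tested Wnt genes at 2 and 12 weeks; filled points have an edgeR adjusted p under 0.05 and open points were not called. Wnt4 and Wnt10a lie at 1.86 to 2.71, Wnt11 lies at -2.05 at 2 weeks, and Wnt5b, Wnt9a and Wnt9b lie close to 0 at both durations.

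The other 4 tested genes were not called between genotypes at either duration. Intervals of 2 SE on either side give an approximate range for each difference. Wnt5b, the paralogue of Wnt5a (chromosome 6, 119432531 to 119544347, minus strand), averaged 4.63 ± 0.688 CPM in knockout against 5.16 ± 0.603 CPM in wild type at 2 weeks. The averages at 12 weeks were 4.87 ± 0.789 and 5.65 ± 0.712 CPM. Its intervals of the log2 fold change were -0.41 to 0.15 at 2 weeks and -0.49 to 0.11 at 12 weeks. Wnt9a, best known from joint formation (chromosome 11, 59306928 to 59333552, plus strand), averaged 1.60 ± 0.379 CPM in knockout kidneys, against 1.86 ± 0.324 CPM in wild-type kidneys at 2 weeks. It averaged 1.76 ± 0.445 and 1.65 ± 0.642 CPM at 12 weeks, and its intervals were -0.61 to 0.23 at 2 weeks and -0.44 to 0.70 at 12 weeks. A change by a log2 step of 1 lay outside all of these intervals, which are approximate.

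Wnt9b, the inducer of the embryonic nephron (chromosome 11, 103727364 to 103749821, minus strand), varied more from library to library. It spanned 1.502 to 8.01 CPM in knockout and 3.22 to 8.89 CPM in wild-type libraries at 2 weeks, and 1.32 to 4.36 and 1.87 to 3.90 CPM at 12 weeks. Its intervals were -0.73 to 0.63 at 2 weeks and -0.47 to 0.67 at 12 weeks. Wnt2b, a ligand of the beta-catenin route made by stromal cells in several organs (chromosome 3, 104945272 to 104961921, minus strand), averaged 1.54 ± 0.376 CPM in knockout against 2.11 ± 0.535 CPM in wild type at 2 weeks (edgeR log2 fold change -0.44, SE 0.22, adjusted p = 0.149). At 12 weeks it had 26 counts over the knockout libraries and 20 over the wild-type libraries, and a genotype difference was not detectable at this depth (interval -1.23 to 1.31).

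The genotype differences of the 2 durations were then compared directly, by the interaction of genotype and duration over 24 libraries. None of the 9 genes was called, where 0.174% of all tested genes, 30 genes, were called by edgeR; DESeq2 called 154 genes and no Wnt gene among them. At an unadjusted p under 0.05 edgeR marked 2 of the 9, Wnt11 and Wnt7b, and 1835 of all 17286 tested genes. The genotype difference in Wnt11 was higher at 12 weeks than at 2 weeks by a log2 step of 1.32 (SE 0.51, edgeR adjusted p = 0.328) and that in Wnt7b by 0.72 (SE 0.33, edgeR adjusted p = 0.436). The changes of Wnt11, called at 2 weeks alone, and of Wnt5a, called at 12 weeks alone (interaction 0.26, SE 0.17, edgeR adjusted p = 0.626), were thus not shown to depend on duration. Wnt4 had an interaction of 0.85 (SE 0.56, edgeR adjusted p = 0.615).

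The make-up of Wnt ligand RNA was read as the share of each gene in the summed CPM per kb of the 19 ligand genes. The 10 genes summed to 11.7 ± 2.91 CPM per kb in knockout and 9.38 ± 1.46 in wild type at 2 weeks, with overlapping ranges of 8.02 to 16.3 and 7.48 to 11.5. At 12 weeks they summed to 10.4 ± 1.84 and 6.60 ± 0.746 CPM per kb, with ranges of 8.44 to 12.8 in knockout and 5.22 to 7.32 in wild type that did not overlap. Wnt4 made up 14.7% ± 4.11 in knockout and 5.10% ± 2.13 in wild type at 2 weeks. Its share at 12 weeks was 14.6% ± 5.25 and 3.74% ± 0.743. Wnt10a made up 5.88% ± 2.29 and 1.69% ± 0.478 at 2 weeks, and 9.64% ± 3.43 and 3.06% ± 2.45 at 12 weeks. Wnt11 made up 1.67% ± 0.613 in knockout against 9.19% ± 1.43 in wild type at 2 weeks. Wnt5a held a like share in all groups, from 18.6% ± 3.70 in knockout at 12 weeks to 20.1% ± 3.34 in wild type at 12 weeks. Wnt5b held 16.1% ± 3.29 in knockout and 29.2% ± 4.78 in wild type at 12 weeks. Shares within a sum are tied to each other, so a higher share of 1 gene lowers the others.

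**Figure D3:**
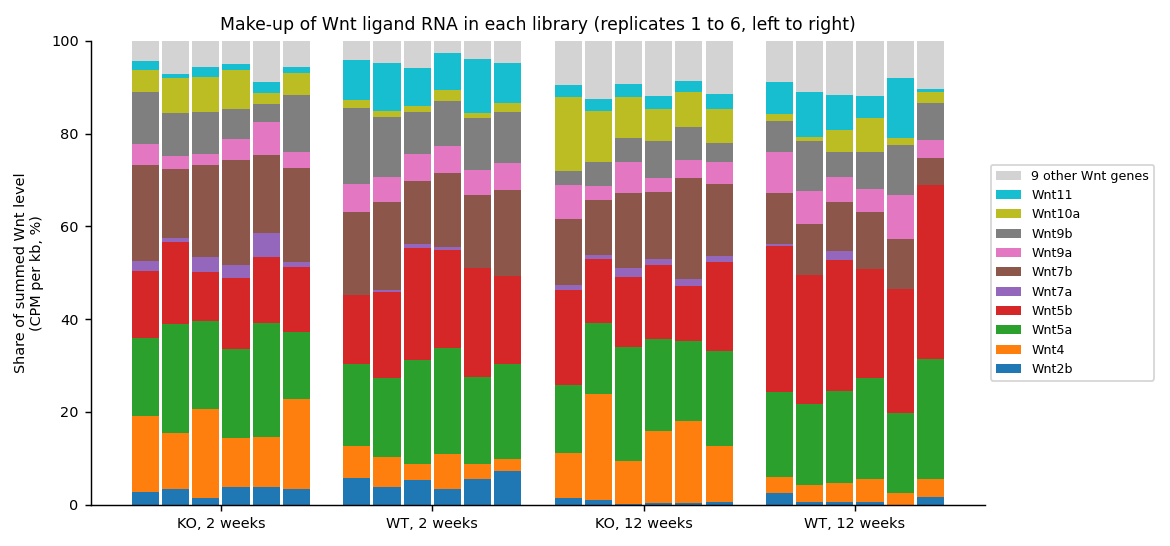
Share (vertical axis, percent) of each Wnt gene in the summed CPM per kb of 19 ligand genes, 1 bar per library, with the 6 knockout (KO) libraries left of the 6 wild-type (WT) libraries at each duration. The Wnt4 share averages 14.7% and 14.6% in KO libraries and 5.10% and 3.74% in WT libraries, and the Wnt11 share averages 1.67% in KO and 9.19% in WT libraries at 2 weeks.

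Between durations, which cannot be told apart from library sets, Wnt2b had the lowest log2 fold changes of the 9 tested genes. It passed the filter through the 2-week libraries, with 1 of 6 libraries above the limit in each genotype at 12 weeks against 6 of 6 in each at 2 weeks, so a difference between durations is built into its being tested. It was lower at 12 weeks than at 2 weeks in knockout (0.316 ± 0.232 against 1.54 ± 0.376 CPM, edgeR log2 fold change -2.26, SE 0.41, adjusted p = 9.26e-05). In wild type it was 0.310 ± 0.309 CPM at 12 weeks against 2.11 ± 0.535 CPM at 2 weeks (edgeR log2 fold change -2.73, SE 0.42, adjusted p = 1.14e-05), and the durations did not overlap in either genotype, which 14.3% of tested genes showed in knockout and 16.0% in wild type. Wnt2b was the 1 gene of 9 called in knockout, where 33.8% of tested genes were called and 16.1% were lower. In wild type 4 of 9 were called, all lower at 12 weeks, where 30.4% of tested genes were called and 14.7% were lower. These were Wnt2b, Wnt7b, Wnt5a and Wnt9b.

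Wnt7b in wild type was 3.75 ± 1.03 CPM at 12 weeks against 8.11 ± 1.88 CPM at 2 weeks (edgeR log2 fold change -1.12, SE 0.24, adjusted p = 0.000828). Wnt5a was 11.4 ± 0.829 against 15.1 ± 1.97 CPM (edgeR log2 fold change -0.40, SE 0.12, adjusted p = 0.0149). In both genes the wild-type durations did not overlap. In knockout, Wnt7b was 8.92 ± 2.87 CPM at 12 weeks against 11.8 ± 3.78 CPM at 2 weeks (edgeR log2 fold change -0.40, SE 0.22, adjusted p = 0.165). A call was made only without knockout replicate 5 of 12 weeks (edgeR adjusted p = 0.0350). Wnt9b in wild type was 2.76 ± 0.831 against 5.30 ± 2.00 CPM (edgeR log2 fold change -0.95, SE 0.33, adjusted p = 0.0328). The call was lost without the filter (edgeR adjusted p = 0.0510) and without any of wild-type replicates 1 and 2 of 2 weeks or 1, 3, 4 and 6 of 12 weeks (edgeR adjusted p = 0.0531 to 0.0998). In knockout, Wnt9b was 2.89 ± 1.19 CPM at 12 weeks against 5.07 ± 2.44 CPM at 2 weeks and was not called (edgeR log2 fold change -0.81, SE 0.33, adjusted p = 0.0587). The sum of the thin limb markers was lower at 12 weeks too, at 122 to 207 CPM against 174 to 325 CPM at 2 weeks in knockout, and at 89.0 to 158 against 181 to 290 CPM in wild type. This was not particular to the thin limb. In wild type the distal convoluted tubule sum (1210 to 1615 against 2457 to 3404 CPM) and the thick ascending limb sum (3448 to 4985 against 5805 to 7220 CPM) were lower without overlap. So was the urothelium sum (1.59 to 9.61 against 11.7 to 19.8 CPM), whereas the podocyte sum was higher (421 to 636 against 349 to 417 CPM). The part of these markers in these results was not tested.

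The other 9 ligand genes were scarce. Wnt16, a ligand best known from bone and joint, passed the filter and was higher in knockout at both durations (0.986 ± 0.321 against 0.481 ± 0.168 CPM and 1.43 ± 0.336 against 0.795 ± 0.322 CPM; edgeR log2 fold change 1.09, SE 0.31, adjusted p = 0.0119, and 0.88, SE 0.30, edgeR adjusted p = 0.0311). Before TMM scaling it passed the limit of 0.649 CPM in 6 of 6 knockout libraries at each duration, against 1 and 4 of 6 wild-type libraries. As for Wnt10a, a difference is therefore built into its being tested. Wnt2 passed the filter and was not called (log2 fold change 0.04, SE 0.36, and -0.09, SE 0.28). Wnt10b, a relative of Wnt10a, and Wnt6 are named after their values were seen. Wnt10b had 30 counts in knockout against 1 in wild type at 2 weeks and 50 against 3 at 12 weeks, with no overlap of levels at either duration. Wnt6 had 52 counts in knockout against 13 in wild type at 2 weeks and 48 against 12 at 12 weeks, and it overlapped at both. Wnt1, Wnt3, Wnt3a and Wnt8a had 0 to 5 counts over 24 libraries, and Wnt8b had 57. Wnt6 lies 6193 bases from Wnt10a on the same strand of chromosome 1, Wnt3 lies 24328 bases from Wnt9b and Wnt3a 16175 bases from Wnt9a on chromosome 11.

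The other pathway genes are given by role, beside the genome-wide shares of 31.6% called at 2 weeks and 38.5% at 12 weeks. Of the ligand secretion genes Porcn, Wls, Vps35 and Snx3, none was called at 2 weeks and 2 of the 4 were lower in knockout at 12 weeks, both parts of the retromer route that recycles Wntless. These were Vps35 (169 ± 12.9 against 223 ± 20.97 CPM, edgeR log2 fold change -0.37, SE 0.08, adjusted p = 0.00182) and Snx3 (107 ± 6.25 against 125 ± 8.34 CPM, edgeR log2 fold change -0.19, SE 0.06, adjusted p = 0.0269). Of 14 tested receptors and co-receptors, 4 were higher and 1 was lower at 2 weeks, and 5 were higher and 1 was lower at 12 weeks. The shares called, 35.7% and 42.9%, were close to those of all tested genes. Ptk7, a co-receptor of planar polarity signalling, was 18.4 ± 5.51 against 10.02 ± 1.09 CPM at 2 weeks (edgeR log2 fold change 0.90, SE 0.17, adjusted p = 0.000445). It was 26.5 ± 6.20 against 10.6 ± 1.69 CPM at 12 weeks (1.35, SE 0.15, edgeR adjusted p = 1.98e-05). The Frizzled genes Fzd2 (log2 fold change 0.68, SE 0.20, and 0.96, SE 0.21) and Fzd3 (0.40, SE 0.14, and 0.63, SE 0.15) were higher at both durations. Fzd5 was lower at 12 weeks (18.3 ± 3.43 against 28.6 ± 7.62 CPM, edgeR log2 fold change -0.62, SE 0.17, adjusted p = 0.00976) and not called at 2 weeks (-0.03, SE 0.10).

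Of 15 tested secreted and surface inhibitors, 3 were higher and 3 lower at 2 weeks, and 5 higher and 2 lower at 12 weeks. These are 40.0% and 46.7%, against 31.6% and 38.5% of all tested genes, which also went both ways. Notum, the deacylase that strips the lipid from the serine whose codon is shown in capitals above, was lower without overlap at both durations. Its level was 13.4 ± 2.57 CPM in knockout against 27.6 ± 3.01 CPM in wild type at 2 weeks (edgeR log2 fold change -1.01, SE 0.12, adjusted p = 2.72e-06). The 12-week level was 24.6 ± 4.86 against 40.8 ± 2.29 CPM (-0.70, SE 0.11, edgeR adjusted p = 0.000260). Trabd2b, which encodes the Wnt protease Tiki2, was lower too (log2 fold change -0.43, SE 0.11, and -0.88, SE 0.17). Dkk3, of the Dickkopf family, was higher without overlap at both durations (21.3 ± 6.71 against 10.9 ± 0.980 CPM and 53.0 ± 15.2 against 24.7 ± 6.47 CPM; log2 fold change 1.01, SE 0.17, and 1.13, SE 0.22). Apcdd1, a membrane inhibitor of Wnt signalling, was higher at 12 weeks (edgeR log2 fold change 1.54, SE 0.33, adjusted p = 0.00194). The products of R-spondin and Lgr genes amplify the response to Wnt, and 4 of these were tested, of which 1 (25.0%) was called at each duration. Lgr6 was lower at 2 weeks (0.290 ± 0.242 against 0.901 ± 0.335 CPM, edgeR log2 fold change -1.69, SE 0.43, adjusted p = 0.00562). There Lgr6 spanned 0.0928 to 0.736 CPM in knockout and 0.364 to 1.31 CPM in wild type. With a knockout mean under the filter limit of 0.649 CPM, a difference may be built into its being tested. Rspo3 was higher at 12 weeks (2.69 ± 0.880 against 0.686 ± 0.772 CPM, edgeR log2 fold change 2.00, SE 0.46, adjusted p = 0.00326). The 12-week knockout libraries held 1.74 CPM of Rspo3 or more. All wild-type libraries there but replicate 1 held 0.266 to 0.591 CPM, under the filter limit of 0.649 CPM. A difference is therefore built into the testing of Rspo3.

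Inside the cell, 2 of 18 tested components were higher at 2 weeks and 5 at 12 weeks, and none was lower. The shares called, 11.1% and 27.8%, were below the 31.6% and 38.5% of all tested genes. The transcription factor gene Tcf7 was 2.68 ± 0.675 against 0.854 ± 0.329 CPM at 2 weeks (edgeR log2 fold change 1.65, SE 0.26, adjusted p = 7.65e-05). It was 10.1 ± 6.73 against 1.86 ± 0.649 CPM at 12 weeks (2.46, SE 0.38, edgeR adjusted p = 0.000271). Tcf7 is also a T cell gene, and the summed level of 6 T cell markers was 8.63 to 19.9 CPM in knockout against 3.28 to 6.46 CPM in wild type at 2 weeks. That sum was 15.8 to 79.0 against 3.25 to 9.47 CPM at 12 weeks, and its part in the result was not tested. The beta-catenin cofactor genes Pygo1 (log2 fold change 1.54, SE 0.37, and 0.95, SE 0.29) and, at 12 weeks, Pygo2 (0.49, SE 0.09) and Dvl2 (0.35, SE 0.11), a transducer next to the receptor, were higher. Of 13 tested planar polarity genes, 1 was higher and 3 lower at 2 weeks, and 3 higher and 1 lower at 12 weeks. That is 30.8% at each duration, at or below the share of all tested genes. Vangl2, a core polarity gene, was higher at both (0.90, SE 0.20, and 0.73, SE 0.22), Fuz was lower at both (-0.35, SE 0.12, and -0.38, SE 0.09), and Celsr1 (0.33, SE 0.09) and Prickle1 (0.60, SE 0.16) were higher at 12 weeks.

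Of 20 tested target genes of the beta-catenin route, 7 were higher and 4 lower at 2 weeks, and 13 higher and 1 lower at 12 weeks. These are 55.0% and 70.0% called, where 18.2% of all tested genes were higher and 13.4% lower at 2 weeks, and 20.7% were higher and 17.7% lower at 12 weeks. Their median log2 fold change was 0.61 at 2 weeks and 1.02 at 12 weeks, against -0.01 and 0.00 over all tested genes. Among the list's genes with the smallest adjusted p were Cd44 and Mmp7, which also respond to other signals, and Notum, which was lower. Cd44, a hyaluronan receptor, was 25.6 ± 6.24 CPM in knockout against 2.61 ± 0.537 CPM in wild type at 2 weeks and 21.9 ± 6.61 against 2.99 ± 1.09 CPM at 12 weeks. Mmp7, a matrix protease gene, was 7.93 ± 4.46 against 0.0433 ± 0.0390 CPM at 2 weeks and 7.59 ± 1.54 against 0.190 ± 0.222 CPM at 12 weeks. In wild-type libraries Mmp7 reached at most 0.103 CPM at 2 weeks and 0.591 CPM at 12 weeks, under the filter limit of 0.649 CPM. A difference is therefore built into its being tested, and into its part in the shares called.

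Axin2, Nkd1, Nkd2, Znrf3 and Rnf43, feedback inhibitors of the route, are named here after their values were seen, and they did not all go the same way. Axin2 was 3.62 ± 1.61 CPM in knockout against 1.94 ± 0.562 CPM in wild type at 2 weeks (edgeR log2 fold change 0.92, SE 0.28, adjusted p = 0.0149). It was 8.09 ± 3.78 against 1.89 ± 0.833 CPM at 12 weeks (2.13, SE 0.35, edgeR adjusted p = 0.000426). Nkd1 was higher at both durations (log2 fold change 1.01, SE 0.21, and 1.53, SE 0.27), as was Nkd2 (2.72, SE 0.32, and 2.79, SE 0.32). Znrf3 was lower without overlap at 2 weeks (edgeR log2 fold change -0.28, SE 0.08, adjusted p = 0.0153) and not called at 12 weeks (-0.05, SE 0.13). Rnf43 was called at neither duration (-0.27, SE 0.17, and 0.22, SE 0.16), and Notum, given above, was lower at both. The target list had 7 genes called higher and 4 lower at 2 weeks. Also named after their values were seen, Sp5 (edgeR log2 fold change -0.53, SE 0.12, adjusted p = 0.0023) and Ccnd1 (-0.42, SE 0.15, edgeR adjusted p = 0.039) were lower there. Neither was called at 12 weeks (-0.30, SE 0.13, and -0.14, SE 0.13). The lists share genes. Notum, Apcdd1, Rnf43 and Znrf3 stand among the inhibitors and the targets, as do Tcf7 and Lef1 among the intracellular components and the targets, and Lgr5 with the R-spondins and the targets.

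**Figure D4:**
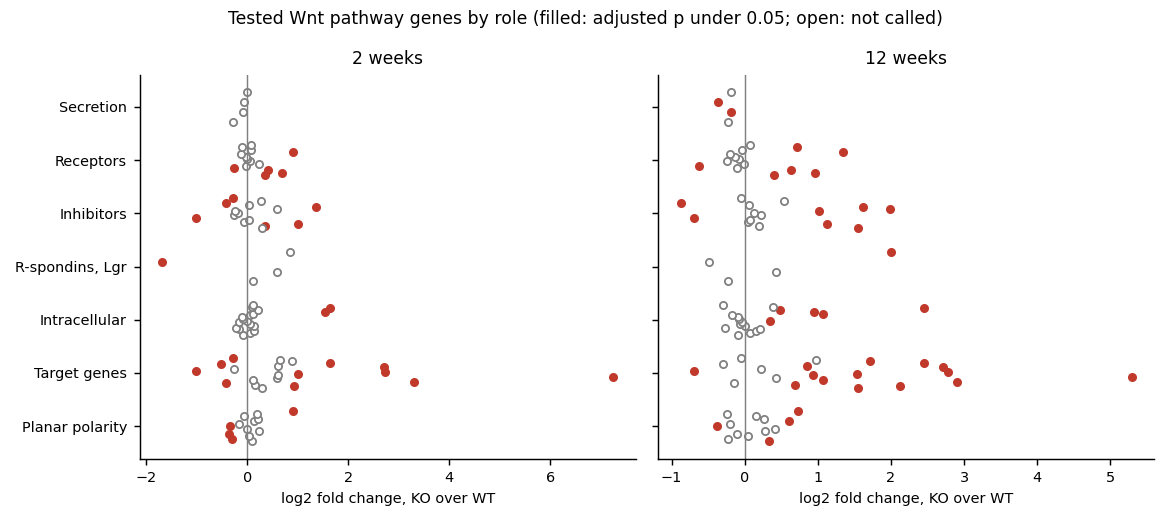
Log2 fold change of knockout over wild type (horizontal axes, which differ in range) of tested Wnt pathway genes by role at 2 weeks (left) and 12 weeks (right), 1 point per gene; filled points have an edgeR adjusted p under 0.05. Of the 20 target genes 7 are called higher and 4 lower at 2 weeks, and 13 higher and 1 lower at 12 weeks, while of the 4 secretion genes none is called at 2 weeks and 2 are lower at 12 weeks.

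Markers of other cell types moved with genotype in the same libraries. The summed level of 7 fibroblast genes was 501 to 1377 CPM in knockout against 124 to 177 CPM in wild type at 2 weeks. The same sum was 547 to 1444 against 116 to 407 CPM at 12 weeks, and 7 of 7 genes were called higher at both. That of 7 macrophage genes was 337 to 803 against 118 to 162 CPM and 493 to 1096 against 120 to 309 CPM, again with 7 of 7 called higher. The sum of 9 injured tubule genes, Havcr1 and Lcn2 among them, was 5179 to 10917 against 572 to 719 CPM and 2533 to 5516 against 476 to 615 CPM, with 9 of 9 called higher.

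Summed markers of tubule epithelia were lower or overlapped. The sum of 7 intercalated cell genes was 203 to 243 CPM in knockout against 317 to 410 CPM in wild type at 2 weeks, and 165 to 221 against 282 to 337 CPM at 12 weeks, with 6 of 7 and 5 of 7 called lower. Distal convoluted tubule genes were called lower in 3 of 4 and 2 of 4 cases and thick ascending limb genes in 3 of 5 and 1 of 5, with 1 of 5 higher at 12 weeks, and the sums of both lists did not overlap at 2 weeks and overlapped at 12 weeks. The 9 collecting duct principal cell genes summed to 391 to 548 CPM in knockout against 550 to 654 CPM in wild type at 2 weeks. At 12 weeks they summed to 225 to 425 against 434 to 661 CPM, and 2 of 9 at 2 weeks and 5 of 9 at 12 weeks were called lower, none higher. The thin limb sums overlapped at both durations, as did those of 7 urothelium genes (7.65 to 21.3 against 11.7 to 19.8 CPM, and 4.10 to 14.2 against 1.59 to 9.61 CPM). Of 5 thin limb genes, 2 were called higher and 2 lower at 2 weeks, and 2 higher and 1 lower at 12 weeks. Of the urothelium genes, 1 of 7 was called lower at 2 weeks and 1 of 7 higher at 12 weeks. All the markers in these lists had counts in each group, except Ly6g of the neutrophil list, which had no counts in either genotype at 12 weeks. Knockout replicate 3 of 2 weeks had the most Wnt4, Wnt5a, Wnt7a, Wnt7b, Wnt10a and Wnt11 of its group. It also had the highest fibroblast, macrophage, T cell, B cell, neutrophil, thin limb and urothelium sums of the group. Its proximal tubule, intercalated and distal convoluted tubule sums were the lowest. The part of these markers in the Wnt results was not tested.

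**Figure D5:**
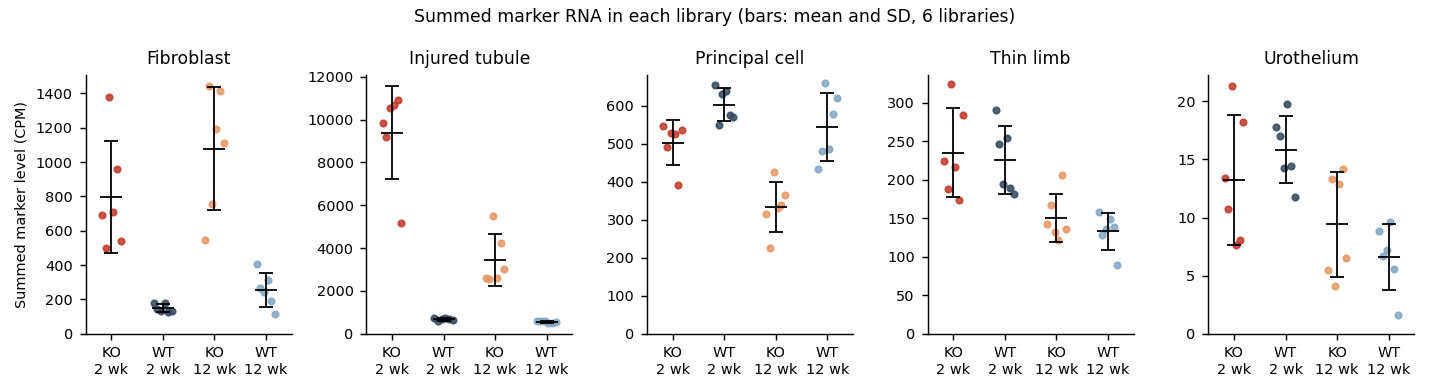
Summed level in CPM (vertical axes, linear, from 0) of 5 marker lists in each library, with knockout (KO) left of wild type (WT) at each duration; points are libraries and black bars the mean and SD of 6. Fibroblast and injured tubule sums lie higher in every KO than in every WT library, principal cell sums lower, and thin limb and urothelium sums overlap.

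The genes whose log2 CPM ran most nearly in parallel with each Wnt gene over the 24 libraries were sought among 13513 genes with a mean of at least 1 CPM, as a description, since the libraries share genotype, library set and depth. For Wnt4 they were Cacnb3 (Pearson r = 0.944), Nupr1 (0.930) and Itgb4 (0.927), and for Wnt7b Ppl (0.919), Nfe2l3 (0.916) and Nradd (0.899). For Wnt10a they were Rhbdl3 (0.911), Ramp1 (0.898) and Dapp1 (0.876), for Wnt2b Amigo3 (0.914), R3hdml (0.913) and Pla2g3 (0.902), and for Wnt5a Maged2 (0.862), Vcan (0.856) and Slc31a2 (0.846). Wnt11 ran closest to Angpt2 (0.852), Corin (0.775) and Ppp1r1b (0.765), and Wnt9b to Akr1b3 (0.806), Fcgbp (0.792) and Farsa (0.771). The likeness was weakest for Wnt5b, with Capn10 (0.715), Apobec2 (0.702) and Ciao1 (0.694), and for Wnt9a, with Slc14a2 (0.607), Dnhd1 (0.606) and Zfp14 (0.598). Akr1b3 and Slc14a2 are both on the thin limb list used here, and whether their RNA came from that segment was not tested.

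Parts of 3 of the Wnt genes overlap exons on the opposite strand, and no source used here gives the strand setting of the counting, so reads there cannot be assigned with certainty. The overlap covers 4.58% of Wnt5a exons with Gm2670, which had 62 counts over 24 libraries against 6429 for Wnt5a, and 6.62% of Wnt7b exons with AU022754, which had 573 counts against 3618. It covers 8.80% of Wnt11 exons with the pseudogene Gm8398, which had 0 counts.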

How the data were processed

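Total RNA of kidneys was purified with a Maxwell RSC simplyRNA kit and made into libraries with a NEBNext Ultra RNA kit, per the labels' protocols. The deposited unit is the raw count of reads for each Ensembl gene, with a file for every library. The authors used fastp, STAR 2.5 and HTSeq 0.6.1 on mm10, per the submitters' processing notes; no source used here gives their options, strand setting or annotation. Symbols, exons and coordinates came from GENCODE M21, which matched 54495 of 54532 identifiers, so all 10 Wnt genes were found. The libraries were grouped by title. The depth of 11.3 to 34.1 megacounts leaves genes under 1 CPM with few counts, and intervals cover counting and sample spread only as far as the fit models them.

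Counts were tested in R 4.3.3 with edgeR 4.0.16 (robust two-sided quasi-likelihood F test after TMM scaling, with Benjamini-Hochberg adjustment). filterByExpr (minimum count 10, minimum total 15) kept 17286 genes. Each genotype comparison used the 12 libraries of its duration, and interaction and duration comparisons all 24. The standard error is the absolute log2 fold change over the square root of F. The test was tried on simulated counts first. The exact test of Wnt7a was added after seeing the data. The members and gene lists were chosen with earlier results of these data known. All 10 Wnt genes are named, and of each other list up to 4 called genes with the smallest adjusted p at either duration. The values of 1 gene of the target list are not reported here. For likeness, the 3 genes with the highest Pearson r of log2 CPM (prior count 2) are named. The alternatives were each library left out in turn, a replicate block, all libraries in 1 fit, a filter by mean CPM or none, upper-quartile or RLE scaling, and DESeq2 1.42.0. No 2 libraries of a group were close enough to be duplicates. Figures were drawn with matplotlib 3.10.9 in Python 3.11.15.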

Additional observations from a re-analysis of the deposited data

Results flagged for a closer look

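In 14 of 160 groups of 6 libraries, over the 40 genes named with levels, 1 library stood apart from the others by Dixon's test at the 95% level, which chance gives in about 1 of 20 groups. Of the 40 groups of the 10 Wnt genes 6 were so marked. Wnt5a stood high in knockout replicate 3 of 2 weeks (25.4 CPM, against 15.8 to 19.1 in the others) and low in knockout replicate 1 of 12 weeks (11.1, against 17.0 to 18.5). Wnt5b stood low in knockout replicate 5 of 2 weeks (3.31, against 4.58 to 5.32). Wnt7b stood high in knockout replicate 5 of 12 weeks (14.6, against 6.69 to 8.77) and low in wild-type replicate 6 of 12 weeks (1.68 CPM from 20 counts, against 3.94 to 4.38). Wnt7a stood high in wild-type replicate 3 of 12 weeks, at 0.492 CPM from 5 counts, against 0 to 0.0976 CPM. Among the other genes, Fzd2 stood high in knockout replicate 3 of 2 weeks (9.17 CPM), Tcf7 in knockout replicate 2 of 12 weeks (23.3 CPM, against 4.84 to 10.1 in the others) and Snx3 in knockout replicate 2 of 2 weeks (152.59 CPM). In wild type, Dkk3 stood high in replicate 6 of 2 weeks (12.8 CPM), and at 12 weeks Pygo1 in replicate 2 (2.21 CPM), Rspo3 in replicate 1 (2.25 CPM, against 0.266 to 0.591 in the others) and Snx3 in replicate 2 (140 CPM). Wnt10b was marked in wild-type replicate 2 of 2 weeks, whose 1 count (0.0487 CPM) was the only count of its group. Knockout replicate 2 of 12 weeks, high in Tcf7, also had the most T cell marker RNA of its group (79.0 CPM); its part in the result was not tested.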

How the results depend on the processing

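Over 288 results of the 9 tested Wnt genes under other tools, scalings, filters and fits, 279 kept their direction and their side of the threshold, 6 lost the call and 3 gained one, and none was reversed. Over 864 results with 1 library left out, 839 kept their side of the threshold, 14 lost the call and 11 gained one. No called result was reversed. Some differences that were not called changed direction, such as Wnt9b at 2 weeks (log2 fold change -0.21 to 0.19) and Wnt2b at 12 weeks (-0.26 to 0.64). The calls of Wnt4, Wnt10a and Wnt11 at 2 weeks and of Wnt4, Wnt5a, Wnt7b and Wnt10a at 12 weeks held in all of them. DESeq2 called 154 genes in the interaction, against 30 by edgeR; the cause was not tested. With 1 library left out, the genes called were 4826 to 6063 at 2 weeks, 5515 to 6961 at 12 weeks, 22 to 56 in the interaction (56 without knockout replicate 3 of 12 weeks), 5107 to 5983 between durations in knockout and 4525 to 5472 in wild type. Replicate numbers do not pair the libraries, since residuals of same-numbered libraries correlated at -0.10 to 0.17. With the number as a replicate block, 5103, 5950, 27, 5562 and 5059 genes were called in these 5 comparisons, and Wnt7b at 2 weeks (edgeR adjusted p = 0.117) and Wnt9b between durations in wild type (edgeR adjusted p = 0.0667) passed no longer. With DESeq2, Wnt9b between durations in knockout (adjusted p = 0.0410) and Wnt4 between durations in wild type (adjusted p = 0.0462) passed. Without wild-type replicate 5 of 12 weeks Wnt11 passed between durations in wild type (edgeR adjusted p = 0.0405), and without knockout replicate 4 or 5 or wild-type replicate 1 of 2 weeks, or knockout replicate 5 of 12 weeks, Wnt9b passed between durations in knockout (edgeR adjusted p = 0.0100 to 0.0473). Depth limits Wnt7a, Wnt10b and, at 12 weeks, Wnt2b, which have few counts per library.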
